A study of Drosophila melanogaster with 2 samples.

Results

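The genes described here encode 10 proteins that act at the promoters of broadly expressed genes or at chromatin insulators in Drosophila. They are Dref, M1BP, Trf2, BEAF-32, Cp190, CTCF, su(Hw), mod(mdg4), Trl and pzg. They were chosen by name for these known roles, with earlier results of these data known. The choice was out of 13945 protein-coding genes on the 6 chromosome arms in the Ensembl annotation, and all 10 were found there. Their expression cannot be checked in these data, which measure only where a protein sat on chromatin.

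The data came from chromatin immunoprecipitation and sequencing of whole adult flies, males and females pooled, age not known. Every fly belonged to 1 line stably expressing Crg-1, a forkhead-family transcription factor, with GFP at its C terminus, and an antibody against GFP was used. There was 1 group with 2 biological replicates, numbered 2 and 3 in the labels, and no untagged sample was analysed here. A whole-fly sample mixes all tissues, so the lists do not tell which cells carried a region, and whether the tagged protein behaves like the untagged one was not measured.

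Housekeeping promoters in flies rely on a small set of sequence-specific factors. Dref binds the DNA replication-related element, M1BP binds the core promoter element named Motif 1, and Trf2 is a relative of the TATA-binding protein that serves promoters without a TATA box. The protein encoded by pzg, also called Z4, works with Dref and with chromatin proteins of interbands. Insulators block contact between enhancers and promoters or mark domain borders. BEAF-32, CTCF and su(Hw) bind insulator DNA directly, while Cp190 and mod(mdg4) are BTB-domain partners that such proteins recruit. Trl encodes the GAGA factor, another BTB-domain protein, which opens chromatin at promoters.

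Of the 10 genes, 9 had a region of the thresholded set in the gene body or within 2000 bp of it, and CTCF had none. Such a region was present at 36.7% of all protein-coding genes. A summit is the position of highest signal in a region. At 8 of 10 members a summit lay within 500 bp of one of the gene's own start sites, against 22.9% of protein-coding genes. Because the members were chosen with earlier results of these data known, these counts are descriptions only. The strongest sites were in an intron of Trl and inside mod(mdg4), followed by the promoters of Cp190 and Dref. The thresholded set is the authors' list of 3707 regions that passed their reproducibility threshold. Not every one of them ranked high in both replicates. Signal is the height of a region in the authors' own units. Genes differ in length, number of start sites and neighbours, and these shares are over all genes, not over genes like the members in those respects. Among protein-coding genes longer than 10000 bp, 46.9% had a region in the body or within 2000 bp.

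The sequences shown next lie at or beside summits and were chosen for a high signal or for a match to a recognition word of one of the factors. They are the reference letters under the signal and do not show direct contact with the protein. All are the forward strand of the Release 6 genome sequence (RefSeq), the build called dm6. Capitals mark every match to one of the words searched on both strands, and annotated untranslated exons were left out except at mod(mdg4), where the whole window is annotated as untranslated exon and 29 bases are given. For the Trl intron, chr3L:14759433-14759533, the capitals mark the forkhead word TGTTTAC read on the other strand. For the Trl site upstream of the inner start sites, chr3L:14758187-14758287, they mark a pair of GAGAG words and then 2 forkhead matches. The site in mod(mdg4), chr3R:21365392-21365420, shows the forkhead word 34 bp left of the summit. The Cp190 promoter, chr3R:15275279-15275379, held none of the words. In the gap between Dref and its neighbour, chr2L:9967230-9967283, the capitals mark CGATA, the core of the BEAF-32 site. At M1BP, chr3R:8731778-8731878, they mark TGCATA, a core of the Su(Hw) site, running into a match to the forkhead pattern RYAAAYA. The region upstream of Trf2, chrX:8407312-8407412, held TATCGATA, the element that Dref binds, then a forkhead match and a further BEAF-32 core.
Trl intron: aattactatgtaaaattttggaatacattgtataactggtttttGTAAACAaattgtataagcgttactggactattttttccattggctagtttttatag
Trl inner promoter: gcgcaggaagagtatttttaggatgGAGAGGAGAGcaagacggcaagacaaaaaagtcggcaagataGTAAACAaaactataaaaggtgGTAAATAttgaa
mod(mdg4): actatactcaaGTAAACAtattactaaat
Cp190: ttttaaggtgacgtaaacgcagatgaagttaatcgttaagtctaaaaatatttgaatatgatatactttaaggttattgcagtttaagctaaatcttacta
Dref: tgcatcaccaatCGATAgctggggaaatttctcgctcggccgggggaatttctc
M1BP: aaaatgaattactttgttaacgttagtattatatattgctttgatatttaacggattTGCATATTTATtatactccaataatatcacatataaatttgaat
Trf2 upstream: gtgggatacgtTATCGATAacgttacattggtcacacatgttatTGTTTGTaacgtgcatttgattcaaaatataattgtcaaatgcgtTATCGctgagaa

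In total 23 thresholded regions lay in or within 2000 bp of the 9 members, out of 71 candidate regions there in the list made from both replicates pooled. That is 32.4% of the members' candidates, where 12.4% of the 30000 pooled candidates passed. The signal at the 23 regions ran from 110.8 to 844.2 with a median of 183.2, beside a median of 161.2 over all 3707. Of the 23, 13 were above that overall median, 4 ranked among the 500 strongest regions and 1 among the 100 strongest. Rank 1 is the highest signal of a list.

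**Figure D1:**
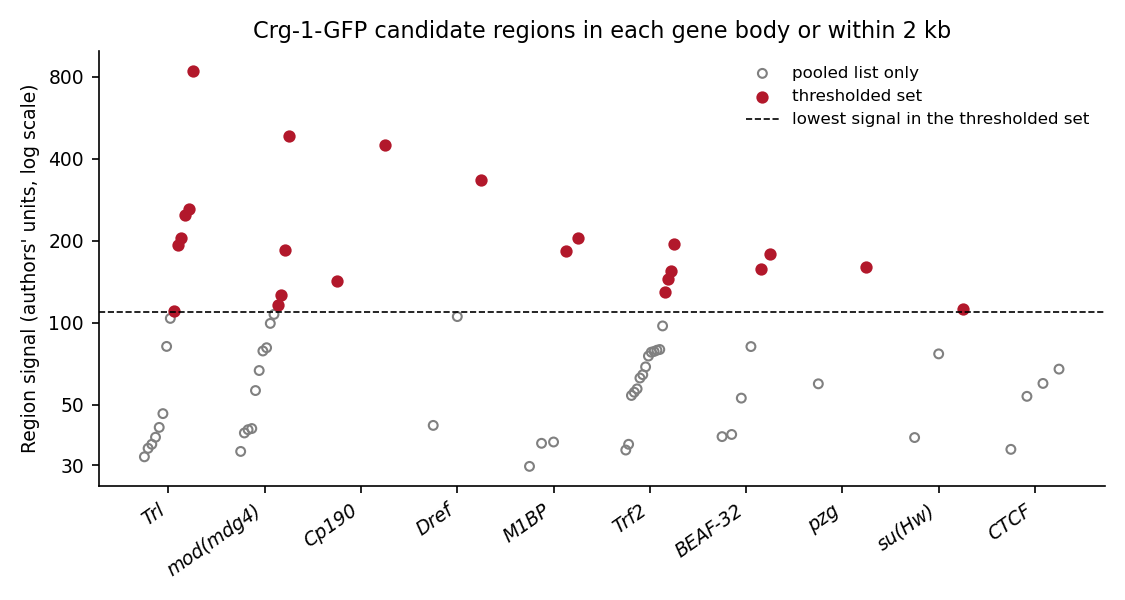
Signal of every candidate region (log scale) in the body of each gene or within 2 kb, with filled points for the thresholded set and open points for regions of the pooled list alone. The dashed line is the lowest signal in the set, 109.7. Trl reaches 844.2, the point for su(Hw) sits just above the line at 112.7, and all 4 points of CTCF lie below it.

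Trl carried 6 thresholded regions, more than any other member. The strongest had a signal of 844.2 and was the 35th of the pooled list (chr3L:14759315-14759697, summit 14759483). Its signal was 512.7 in replicate 2, at rank 32, and 328.2 in replicate 3, at rank 39. Both replicates thus placed it near the top. The summit lay in an intron of Trl, between the outermost of its 4 start sites and the inner 3, and 1521 bp from the nearest of them.

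The inner start sites of Trl had regions as well. A summit with a signal of 248.4 lay 141 bp downstream of one of them, in the 5′ untranslated region that Trl shares with CG42507, a gene annotated over the same stretch. Another with a signal of 204.8 lay 275 bp upstream of the inner group, in an intron. Their ranks were 878 and 1175 in replicate 2, and 722 and 1324 in replicate 3, so both were among the 3707 top-ranked regions of each replicate. Further into the gene, an intronic region with a signal of 192.7 was supported by both replicates. The weakest region, 110.8, was not. It ranked 2310 in replicate 3 but 8711 in replicate 2. The last, with a signal of 262.8, lay outside the gene in an intron of Mgat4a, which encodes a sugar transferase of N-glycan synthesis, 371 bp from a start site of that gene.

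The BTB-domain gene mod(mdg4) makes many protein isoforms by joining shared upstream exons to different downstream exons, some of them by trans-splicing. The annotation gives the gene 22 transcripts with 1 shared start site. It also lists 23 separate precursor genes named pre-mod(mdg4), some of which share a start site with one another. The strongest region in the locus lay among those precursors and not at the shared start. It had a signal of 485 and rank 151 (chr3R:21365281-21365453, summit 21365437), in an intron of mod(mdg4) 11964 bp from the shared start and 51 bp from the start of pre-mod(mdg4)-E. Start sites of 10 precursor genes lay within 500 bp of this summit, which need not be 10 separate positions. The rank was 205 in replicate 2 and 121 in replicate 3, so both replicates held it high.

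At the shared start site of mod(mdg4) the signal was lower. A pooled candidate 91 bp inside the gene had a signal of 99.5 and rank 4401, below the threshold, with rank 3986 in replicate 2 and 7076 in replicate 3. The next thresholded summit into the gene, 852 bp from the start, had a signal of 126.4. A further one, with a signal of 116.6, lay 14 bp from the start shared by 3 precursor genes, N, O and AA. Replicate 3 ranked these last regions 3092 and 3398, and replicate 2 ranked them 4075 and 4739, outside its top 3707. The remaining region, with a signal of 185.8, lay outside the gene and 163 bp from a start of tin, the heart determinant tinman.

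Trf2 had 4 thresholded regions, of which 1 lay at its own start. That one had a signal of 194.2 with its summit 42 bp downstream of the outer start (chrX:8409094-8409533, summit 8409314), at rank 1386 in replicate 2 and 1347 in replicate 3. The next ones into the gene had signals of 144.6 and 155.1, and their nearest start sites belonged to lawc, a gene on the opposite strand that overlaps the beginning of Trf2. The region with a signal of 129.4 lay 1910 bp upstream and 99 bp from a start of PIG-T, which encodes a subunit of the GPI transamidase. Its rank was 3754 in replicate 2, just outside the top 3707, and 1963 in replicate 3. The inner start of Trf2 had no thresholded region, and its closest candidate, 79 bp away, had a signal of 57.2.

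These were the members longer than 10000 bp, and all 3 had at least 4 thresholded regions in the body or within 2000 bp. Among the 1977 protein-coding genes of that length, 6.17% had at least 4. The cut of 4 equals the lowest count among the 3 members, so this share is a description only. Each member's count includes a region outside the gene, near Mgat4a, tin or PIG-T. The 14 regions of the 3 long members left 9 for the other 7 members.

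**Figure D2:**
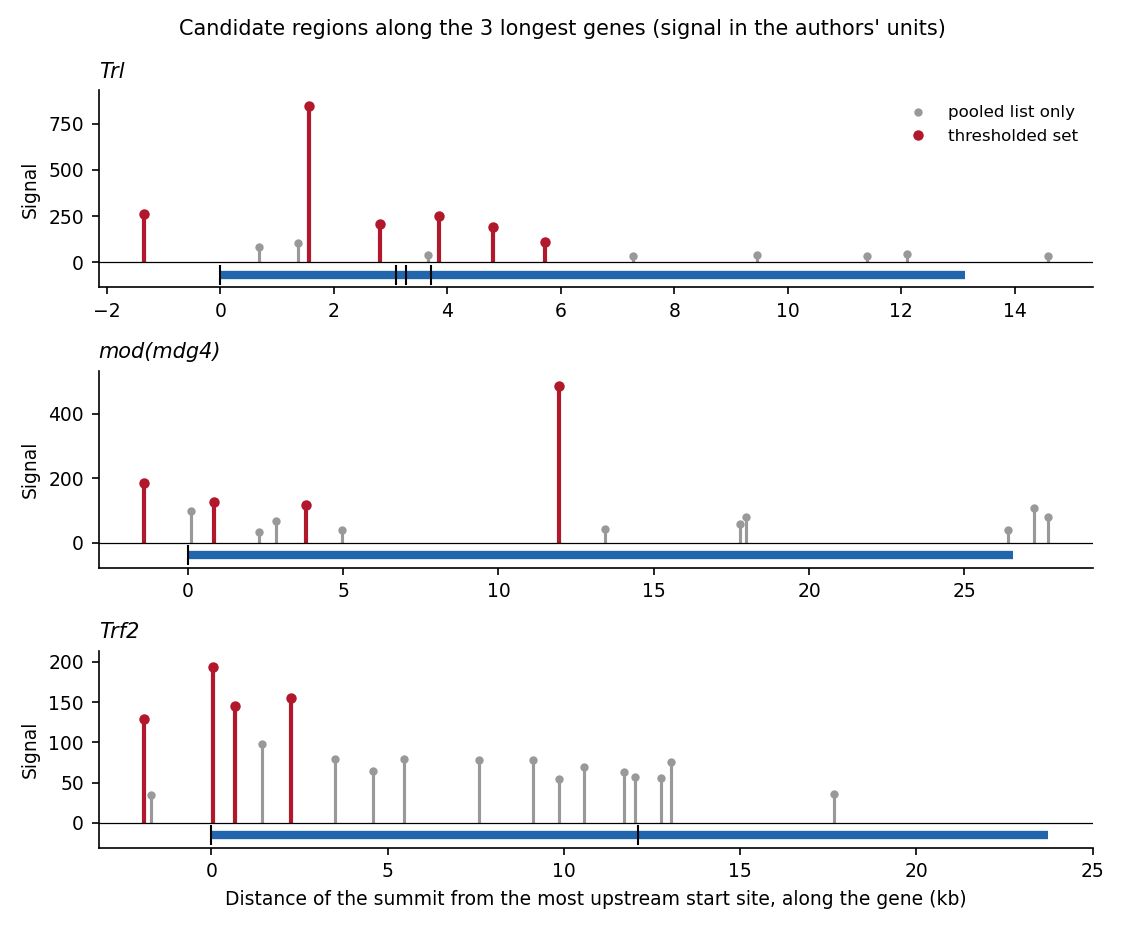
Summits of candidate regions along Trl, mod(mdg4) and Trf2, plotted by distance in kb from the most upstream start site, with the height giving the signal. Red marks the thresholded set, grey the pooled list alone, the blue bar the gene body and black ticks its start sites. The tallest line lies in an intron in Trl, near 12 kb inside mod(mdg4), and at the outer start of Trf2.

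Among regions within 500 bp of a member's own start site, those of Cp190 and Dref had the highest signals. The Cp190 region had a signal of 447.9 and rank 201 (chr3R:15275109-15275548, summit 15275329), with ranks of 294 in replicate 2 and 120 in replicate 3. Its summit lay 88 bp upstream of the Cp190 start, in the 281 bp that separate it from the start of CG4338 on the other strand. A second and weaker region, with a signal of 141.9, had its summit 23 bp from the start of CG4338. In replicate 2 a single region covered both, while replicate 3 held a region of its own there at rank 1238.

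The Dref summit lay 4 bp from its start site, in the gap of 84 bp to RpL13, which encodes a protein of the large ribosomal subunit. This region had a signal of 335.5 and rank 425 (chr2L:9967013-9967452), with ranks of 484 and 367 in replicates 2 and 3. A neighbouring candidate on the RpL13 side had a signal of 105.4, just below the threshold. The replicates differed there, with rank 1748 in replicate 2 and 21981 in replicate 3 for the matching regions.

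M1BP had 2 overlapping regions in the 393 bp between its start and that of CG8202. The summits lay 130 and 333 bp upstream of M1BP, with signals of 204 and 183.2. Replicate 2 held 1 region for both, at rank 1380, with its summit 7 bp from the weaker summit and 210 bp from the stronger. Replicate 3 held separate ones, at ranks 731 and 1873. The pzg region, with a signal of 159.8 (chr3L:21285746-21286185, summit 21285966), lay 133 bp upstream of its start and 4 bp from that of CG12974. Its ranks were 2043 and 2224, so the replicates placed it alike.

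At su(Hw), whose product binds the gypsy insulator, the 1 region was near the edge of the set, with a signal of 112.7 and rank 3517 (chr3R:14308572-14309011, summit 14308792). It lay 203 bp upstream, in the 500 bp to the start of Polr2I, a subunit gene of RNA polymerase II. Neither replicate alone placed it among its top 3707, with rank 4195 in replicate 2 and 5872 in replicate 3. The weakest region in the whole set had a signal of 109.7.

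CTCF had 4 candidates, with signals of 34.3 to 67.6, all below the threshold. The strongest lay 282 bp upstream of its start at rank 8107 of the pooled list. Replicate 3 ranked the matching region 3925, close to its top 3707, while replicate 2 ranked its own at 18079. The highest rank near CTCF in replicate 2 was 7085, for a region in a coding exon of the neighbour pst. The list ranks candidates by signal, so this places the signal at CTCF lower and does not show that binding was absent.

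BEAF-32 had a pair of regions at its promoters, and both replicates supported each. The stronger, with a signal of 178.8, had its summit exactly on the innermost of its 3 start sites, on arm 2R from 14771081 to 14771520. The other, with a signal of 157.2, lay 32 bp upstream of the outermost start, on arm 2R from 14770217 to 14770656. An antisense RNA gene, CR42254, runs across the outermost start on the opposite strand and has a start site 6 bp from a BEAF-32 start. Both summits lay within 500 bp of a start of CR42254. Replicate 2 ranked the regions 1814 and 2561, and replicate 3 ranked them 1574 and 1520.

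Of the 12 summits within 500 bp of a member's own start, 9 lay upstream, 2 downstream and 1 on the start itself, at a median distance of 131.5 bp and no more than 333 bp away. In 10 of the 23 regions the nearest start site belonged to a different gene. This counts the mod(mdg4) regions with signals of 485 and 116.6, nearest to precursor genes of the same locus. Counting the starts of all genes, 19 of the 23 summits lay within 500 bp of one, or 82.6%, against 70.9% of all thresholded summits. The other 4 were the Trl summits with signals of 844.2, 192.7 and 110.8 and the one 852 bp into mod(mdg4).

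Many members have the start of a neighbour close upstream on the opposite strand. A protein-coding start on the opposite strand lay within 1000 bp upstream of a start of 6 members, Dref, M1BP, Cp190, su(Hw), Trl and pzg, an arrangement found at 36.2% of protein-coding genes. All 6 had a thresholded summit within 500 bp of a start of their own, where 41.5% of the 5052 genes so arranged did. At Trl those summits were at the inner starts, not at the one facing Mgat4a. Of the other 4 members, Trf2 and BEAF-32 had one. Where a summit lies between facing starts, the region cannot be assigned to either gene from its position.

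Support in the replicates was as common as in the whole set. Of the 23 regions, 18 overlapped one of the 3707 top-ranked regions of both replicates, or 78.3%, against 75.9% of all thresholded regions. Replicate 3 supported 22 of them and replicate 2 supported 18. When a replicate summit had to lie within 100 bp, 16 of the 23 were supported by both. The 5 without full support were the su(Hw) region, the region upstream of Trf2, the innermost Trl region and the pair at signals of 116.6 and 126.4 in mod(mdg4). The median distance to the matching replicate summit was 7 bp in replicate 2 and 11 bp in replicate 3. The thresholded set was derived from lists that hold the same reads as these replicates, which share 1 control, so this support is not independent of the threshold.

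**Figure D3:**
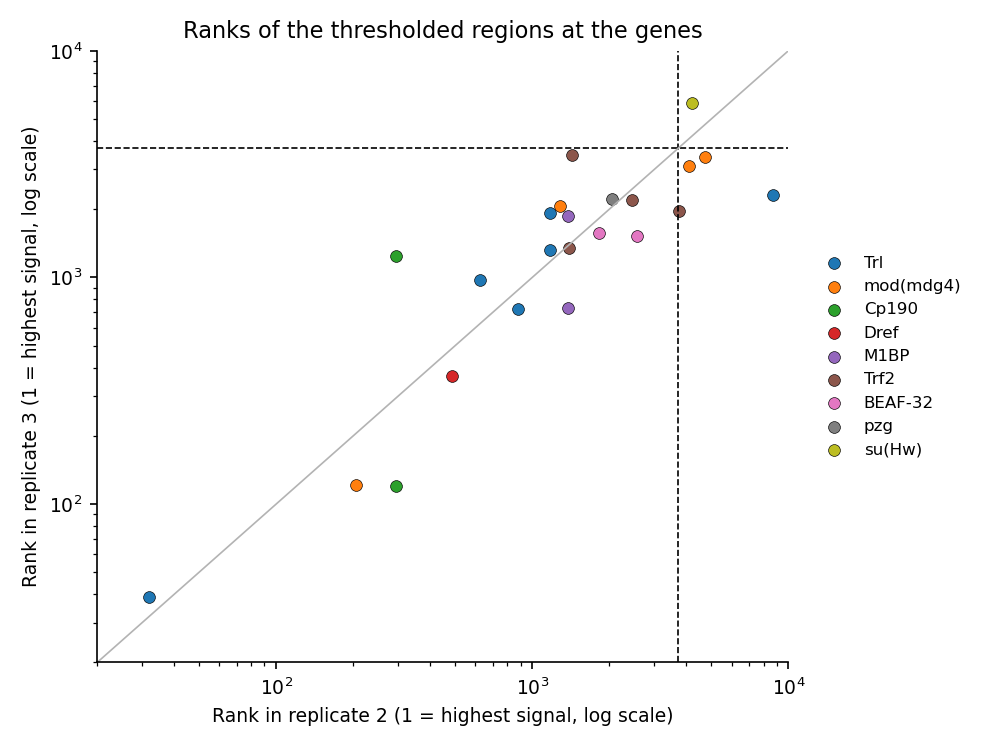
Rank of each thresholded region at the genes in replicate 2 (horizontal) and replicate 3 (vertical), both on log scales with 1 as the highest signal. Dashed lines mark rank 3707 and the grey line marks equal ranks. The strongest Trl region is at 32 and 39, and su(Hw) is alone beyond both dashed lines, at 4195 and 5872.

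The words that forkhead proteins recognise were searched within 50 bp of each summit. The pattern RYAAAYA, in which R is A or G and Y is C or T, was found at 10 of the 23 regions, or 43.5%, beside 36.1% of all thresholded summits and 22.8% of windows of the same width centred on protein-coding start sites. Every match to the narrower word TGTTTAC is also a match to RYAAAYA. This word was found at 4 of 23 regions, or 17.4%, beside 6.02% of all thresholded summits and 3.18% of start-site windows. The 4 were the outer BEAF-32 region with 2 copies, the strongest mod(mdg4) region, and in Trl the strongest region and the one at 204.8. In the Trl sequences printed above, the word started 6 bp left of the summit in the former and 17 bp right of it in the latter. With 23 regions these shares are descriptions, and a match does not show a binding site.

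The recognition words of the members' own products were near the levels elsewhere or too rare to compare. The Dref element TATCGATA occurred at 1 of 23 regions, the one upstream of Trf2, and at 3.86% of all thresholded summits and 4.48% of start-site windows. CGATA, which is part of that element, occurred at 6 of 23, or 26.1%, beside 22.8% of all summits and 23.6% of start-site windows. GAGAG was found at 4 of 23, or 17.4%, beside 12.6% and 12.7%. These were 3 regions at Trf2 and 1 at Trl. TGCATA was found at M1BP and mod(mdg4), or 8.7% of the regions, beside 6.99% of all summits and 3.42% of start-site windows. GTCACACT, the core of Motif 1, and AGGNGGC, a core of the CTCF site, were found at 0 of the 23. They occurred at 1.62% and 3.75% of all thresholded summits, and at 3.92% and 3.06% of start-site windows. Windows around neighbouring summits can overlap, and matches were by letters alone.

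Genes of proteins that work beside these factors were counted in 6 lists of 43 genes. These lists were also chosen with earlier results of these data known. At 20 of the 43, or 46.5%, the promoter carried a thresholded summit by the same 500 bp rule, against the same 22.9% of all protein-coding genes. Insulator partners had 4 of 13, or 30.8%. Their strongest region was at Chro, encoding Chromator, the partner of the pzg product at interbands, with a signal of 843.1 and rank 36 of the set, next after the strongest Trl region. It was followed by l(3)mbt, encoding a chromatin protein of the malignant brain tumor family, with 270.8, and by the nucleoporin gene whose precursor is cleaved into Nup98 and Nup96, with 245.1. The zinc-finger gene pita had one of 192.9, and ZIPIC, Ibf1, Ibf2, dwg, Elba1, Elba2, Elba3, insv and HIPP1 had none at the promoter.

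Transcription pausing factors had 4 of 6, led by the NELF subunit genes Nelf-E with a signal of 585.3, Nelf-A with 312.3 and TH1 with 177.6. The weakest of them, spt4 with 144.5, ranked 4945 in replicate 3, outside its top 3707. The GAGA-related genes psq, Clamp and lolal, whose products bind GA-rich DNA or partner the GAGA factor, had 3 of 3, with signals of 223.4, 170.1 and 114.4. In replicate 3 the regions of Clamp and lolal ranked 4448 and 5015, outside its top 3707. Cohesin genes had 4 of 7, led by pds5 with 449, SA1 with 275.3 and SMC1 with 159.3. The weakest, wapl with 116.3, was outside the top 3707 of both replicates. Chromatin remodelling genes had 3 of 7, Acf with 209.3, E(bx) with 206.8 and XNP with 196.7. The NSL complex, which binds housekeeping promoters, had 2 of 7, Rcd5 with 205.8 and nsl1 with 159.7. Lists this short give shares that 1 gene moves by many points.

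**Figure D4:**
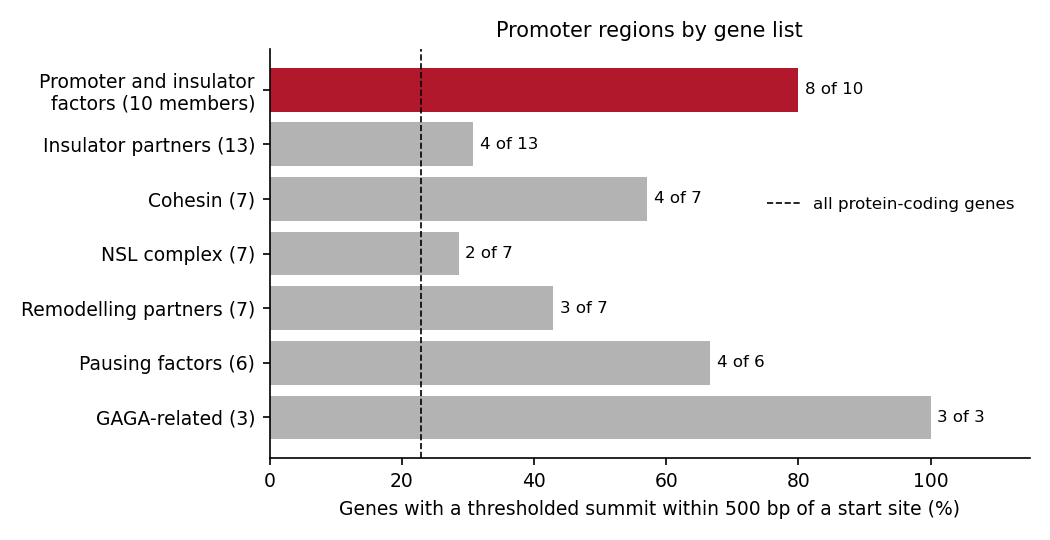
Share of genes (percent, horizontal bars from 0) with a thresholded summit within 500 bp of a start site, for the 10 members in red and 6 lists of related genes in grey, with counts beside the bars. The dashed line is the share of all protein-coding genes, 22.9%. The members are at 8 of 10, and the insulator partners and NSL complex lie nearest to the line.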

How the data were processed

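Sonicated chromatin, of 200 to 800 bp per the labels, was immunoprecipitated from 2 replicates. Per the deposited file descriptions, the authors called each replicate list from its alignments and a shared control, the pooled list from both, and the thresholded set from these lists by irreproducible discovery rate. Aligner and peak caller: not given in the sources used here. Each region's deposited signal is the authors' own height, used here only for ranking and filtering inside a list. Read depth is unknown.

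The dm6 lists were joined to Ensembl release 115 annotation without transposable elements, and sequence came from Release 6. The dm3 lists were not used. A region counted for a gene with at least 1 bp in its body or within 2000 bp. Replicate ranks are those of the overlapping region with the nearest summit. Coordinates count from 1. Of the related genes, all 43 were matched, SA through an older symbol as SA1, and Nelf-A and spt4 in another case. The 3 of highest signal per list are named, and others were added after their values were seen. The members and lists were chosen with earlier results of these data known. With 1 group no test was made. The counting steps were tested on simulated data. Python 3.11.15, pandas 2.3.3 and numpy 2.4.6 were used.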

Additional observations from a re-analysis of the deposited data

How the results depend on the processing

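Counts were recomputed with other distances, region lists, overlap rules and motif windows. Keeping the 1000 regions of highest signal left 4 members with a region in or near the body (14% of protein-coding genes), 3 with a promoter summit (7.9%) and 7 of the related genes. With 1000 top-ranked regions per replicate, 7 of the 23 regions were supported by both. These settings hold fewer regions by construction. With replicate 2 or replicate 3 alone, 8 members had a region in or near the body, beside 36.4% and 35.9% of protein-coding genes. In either, 7 had a promoter summit, beside 22.6% and 22.4% of protein-coding genes, and 17 to 21 related genes had one. The median rank of the members' strongest regions was 1271.5 in the pooled list and lay between 1039 and 1383 in the replicates. Under the other settings 8 or 9 members had a region in or near the body, and 7 to 9 had a promoter summit. The shares of all protein-coding genes moved with the setting, from 22.9% to 35.7% and from 14.5% to 25.6%. The 7 with nearest start sites only leave out pzg. No paired analysis was possible because there was 1 group. The depth of the libraries is unknown, so what it limits was not tested.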

Other observations

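The rank of some regions differed between the replicates. At the far end of mod(mdg4), 568 bp from a start of its neighbour aus, a pooled candidate had a signal of 107.4, just outside the thresholded set. It ranked 2201 in replicate 2, with a summit 1 bp away. The overlapping region of replicate 3 ranked 18397, but its summit lay 227 bp away. At E(bx), a related gene that encodes the large NURF subunit, the thresholded region at the promoter ranked 480 in replicate 3 and 3592 in replicate 2. Trf2 held 18 pooled candidates in and around its body, of which 14 did not pass, with signals of 34.1 to 97.4.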
